A study of Mus musculus with 6 samples.

Results

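Sensory TRP and Piezo channel genes were examined in vagal jugular-nodose ganglia, where the somata of vagal sensory neurons lie. The 9 genes were chosen by name, with earlier results of these data known. They are Trpv1, Trpv2, Trpv4, Trpa1, Trpm8, Trpm3, Trpm2, Piezo1 and Piezo2, of 32719 genes counted. Each symbol stood on 1 gene. RNA was sequenced from 3 control and 3 treated libraries of wild-type (WT) C57BL/6J male mice. Treated mice received S961, a peptide that blocks the insulin receptor, in PBS at 10 nmol per week for 2 weeks from osmotic pumps under the skin, and controls are described as having received PBS alone. All 6 libraries carry S961 as their treatment label, so the control group rests on the sample titles and the protocol. The age of the mice is not stated in the labels, nor whether a library came from 1 animal or a pool, so p-values measure the spread between these samples.

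TRP channels are cation channels that open to heat, cold, irritants, lipids or cell swelling, and Piezo channels open when the membrane is stretched. In sensory neurons they turn such stimuli into electrical signals. Vagal afferents use them to report airway irritants, gut and lung stretch and arterial pressure. The ganglion joins neurons of 2 origins, placode-derived nodose neurons that serve the viscera and crest-derived jugular neurons that resemble somatic pain and touch neurons.

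Spinal cord is given as the tissue of all libraries, and the ganglia are named under the cell labels. A list of 8 spinal cord and central glia markers summed to between 0.557 and 2.7 CPM, which are counts scaled to the library size after trimmed-mean (TMM) normalisation, in the 6 libraries. All 11 pan-neuronal, 8 nodose and 7 jugular markers had counts in every library. Libraries held between 12898607 and 33522486 gene counts. Treated replicate 3, the smallest, stood apart: its correlations with the others were 0.920 to 0.944 across genes, which are not independent replicates, against 0.968 to 0.989 among the other 5. It also held the highest macrophage (261 CPM), fibroblast (2138), fat cell (224) and neutrophil (48.7) sums. Control sums of these 4 lists reached at most 73.0, 1136, 16.4 and 12.4 CPM.

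Promoter windows from RefSeq (GRCm38.p6, 250 bases before to 50 after a start) were found for 7 of the 9 genes. The windows of 3 genes are shown because these genes had the largest positive difference between the groups (Trpm8), the largest negative one (Piezo1) and the highest level per length of merged exons (Trpv1). Capitals mark the core of the RUNX motif, searched as TGTGGT on both strands. Runx1, a transcription factor of pain-sensing neurons that Trpm8 expression is known to need, is among the jugular markers. The windows are chr1:88306485-88306784 (plus strand), chr8:122551280-122551579 (minus strand) and chr11:73233899-73234198 (plus strand).
Trpm8: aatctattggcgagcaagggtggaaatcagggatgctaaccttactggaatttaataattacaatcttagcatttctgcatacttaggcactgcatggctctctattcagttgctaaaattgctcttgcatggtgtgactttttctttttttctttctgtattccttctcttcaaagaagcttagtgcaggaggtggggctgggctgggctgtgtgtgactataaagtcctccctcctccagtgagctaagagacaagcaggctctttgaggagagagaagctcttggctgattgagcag
Piezo1: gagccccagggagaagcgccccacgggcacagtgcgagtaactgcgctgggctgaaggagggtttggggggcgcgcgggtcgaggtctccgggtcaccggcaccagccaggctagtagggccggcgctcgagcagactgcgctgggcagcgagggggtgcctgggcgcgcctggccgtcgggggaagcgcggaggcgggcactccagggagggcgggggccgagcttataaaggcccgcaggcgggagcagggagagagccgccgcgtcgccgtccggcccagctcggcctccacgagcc
Trpv1: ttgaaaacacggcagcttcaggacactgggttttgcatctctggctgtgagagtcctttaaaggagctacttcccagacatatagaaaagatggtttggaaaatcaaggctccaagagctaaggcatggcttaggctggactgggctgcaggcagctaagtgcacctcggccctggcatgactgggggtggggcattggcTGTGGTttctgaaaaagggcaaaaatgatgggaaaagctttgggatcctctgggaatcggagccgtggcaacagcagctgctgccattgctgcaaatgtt
The Piezo1 window is 75% G or C with 34 CpG dinucleotides, the Trpv1 window 51.7% with 4, and the Trpm8 window 44.3% with 1. The RUNX core occurs once in the Trpv1 window, at position -50 from the start, and in neither of the other windows shown. Windows of Trpv2 and Trpm3, not shown, hold it too, as do 16.8% of 32851 windows of this length. The TATA box letters TATAAA, also searched on both strands, occur in the Trpm8 and Piezo1 windows and in 13.6% of all windows. Windows of Trpm2 and Trpv2, not shown, hold these letters too. The letters TGANTCA of the AP-1 site occur in none of the windows of the 7 genes and in 7.81% of all windows. These are matches of letters and say nothing of binding. The RefSeq start used for Trpm8 lies 29074 bases inside the gene as annotated by GENCODE.

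Levels between genes were compared per kilobase (kb) of merged exon length. In controls the order was Trpv1 at 40.3 ± 3.97 CPM per kb (SD, n = 3), Trpa1 at 32.6 ± 3.91, Piezo2 at 23.8 ± 2.63 and Trpv2 at 10.3 ± 0.810. Below them came Piezo1 at 6.45 ± 0.916 CPM per kb, Trpm8 at 5.49 ± 1.33, Trpm3 at 3.33 ± 0.192, Trpm2 at 2.22 ± 0.155 and Trpv4 at 0.708 ± 0.126. Trpv1 exceeded Trpa1 in 6 of 6 libraries although their control ranges overlapped. Piezo1 and Trpm8 could not be ordered in controls, where Piezo1 was the higher in 1 of 3 libraries. In treated libraries the order differed at 2 places: Piezo2 (31.6 ± 4.27) stood above Trpa1 (26.7 ± 5.64) in 3 of 3 libraries, and the mean of Trpm8 (14.5 ± 7.94) ranked above Piezo1 and Trpv2. Trpm8 exceeded Piezo1 in 3 of 3 treated libraries but Trpv2 in 2 of 3, and without treated replicate 3 its mean of 10.5 CPM per kb lay below the 11.4 of Trpv2. Trpm3, Trpm2 and Piezo2 have many transcripts. With the longest transcript as the length, Trpm3 was at 6.60 CPM per kb, Trpm2 at 3.81 and Piezo2 at 38.0 in controls, and Piezo2 then ranked above Trpa1 there too. The mean of Trpm3 then ranked above that of Trpm8 (6.27) in controls, and above that of Piezo1 (7.85 against 5.94) in treated libraries. On that length Piezo2 also ranked first in treated libraries, at 50.6 CPM per kb against 49.3 for Trpv1, and was the higher of the pair in 2 of 3.

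**Figure D1:**
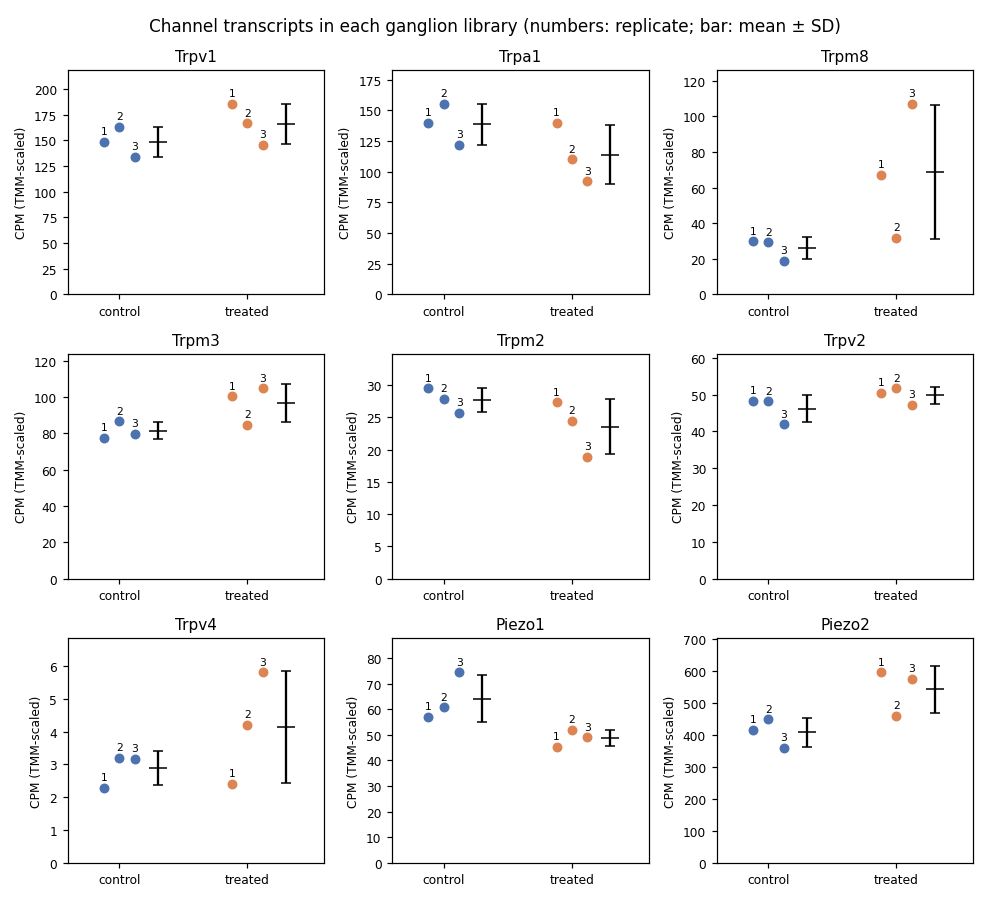
CPM of each channel gene in the 3 control and 3 treated libraries; each point is a library with its replicate number, and the bar gives the mean with its SD. Treated points lie above all controls for Trpm8 and Piezo2 and below them for Piezo1, by narrow gaps in Trpm8 and Piezo2, where treated replicate 2 is close to the controls.

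Treated and control ganglia were compared to ask whether channel transcripts differ after the insulin receptor antagonist was infused into the animal. Trpm8, the cold and menthol receptor, was the gene with the largest difference, 2.64-fold higher in the treated mean. Piezo2, the touch and stretch channel of sensory neurons, was 1.33-fold higher, and Piezo1 was lower at 0.761 of the control mean. The irritant receptor Trpa1 was at 0.821 of the control mean and the capsaicin receptor Trpv1 at 1.12. None of the 9 passed edgeR's quasi-likelihood test at an adjusted p of 0.05, where 0% of 16019 genes tested passed. At an unadjusted p under 0.05 there were 4 of 9 (Piezo1, Piezo2, Trpm8 and Trpm3), against 6.67% of all genes tested; 3 were higher and 1 lower, where 4.0% and 2.67% of all genes were. The DESeq2 Wald test called 1 of 9, Trpm8, against 0.567% of genes, and limma-voom called 0. The groups did not overlap for 3 of 9, against 14.7% of all genes; 2 were higher and 1 lower, where 7.07% and 7.63% of all genes were. Log2 fold changes were positive for 6 and negative for 3, with a median of 0.16 beside 0.02 over all genes tested.

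**Figure D2:**
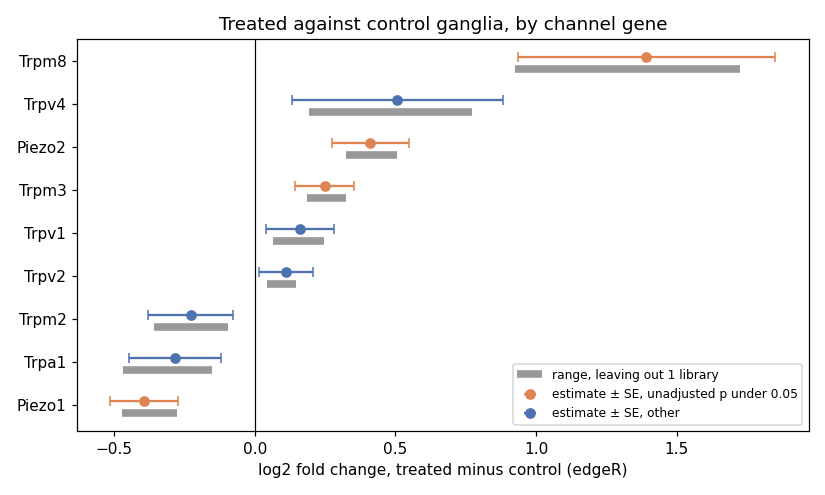
Log2 fold change of each channel gene, treated minus control, from edgeR with its SE (points), and the range of values when each library in turn is left out (grey bars). Trpm8 lies farthest from 0 at 1.39, and no grey bar crosses 0.

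Among the thermal and irritant receptors, Trpm8 (ENSMUSG00000036251, chromosome 1, 88277661 to 88389293, plus strand, GRCm38) had 29.9, 29.3 and 18.7 CPM in control replicates 1, 2 and 3. It had 67.3, 31.7 and 107 CPM in the treated replicates. All treated libraries lay above all controls, but treated replicate 2 exceeded the highest control by little. On the log2 scale the difference was 1.39 ± 0.46 (SE; edgeR adjusted p = 0.702). Its exact permutation p was 0.1, the smallest that 3 against 3 allows. DESeq2 gave 1.39 at an adjusted p of 0.0382, and over 17 alternatives the adjusted p ran from 0.0382 to 0.995. Without treated replicate 3 the log2 fold change was 0.93, and with sample weights in limma-voom it was 0.69.

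Trpm8 was set beside the neuron markers because it is a gene of few sensory neuron types. The 7 jugular markers summed to 202, 197 and 156 CPM in the controls and 372, 237 and 475 CPM in the treated libraries. Trpm8 and this sum put the 6 libraries in the same order, from treated replicate 3 down to control replicate 3. Of the 7 genes, 4 were higher in all treated libraries, beside 7.07% of all genes tested. Among the 4 was Prdm12, a transcription factor of crest-derived pain neurons, at 1.00 ± 0.25 on the log2 scale (edgeR adjusted p = 0.621). Runx1 had 68.3, 67.8 and 55.8 CPM in controls and 113, 78.8 and 132 CPM in treated libraries, in that list too. The 8 nodose markers summed to 618, 606 and 592 CPM in controls and 443, 463 and 215 CPM in treated libraries. Of them, 6 were lower in all treated libraries, beside 7.63% of all genes tested. Casr of the same list went the other way, at 0.73 ± 0.27 on the log2 scale (edgeR adjusted p = 0.721), with overlapping groups. Per 100 CPM of the jugular sum, Trpm8 was at 14.8, 14.9 and 12.0 CPM in controls and 18.1, 13.4 and 22.5 CPM in treated libraries, so on this scale the groups overlapped. Per 100 CPM of the nodose sum it was at 4.83, 4.85 and 3.16 CPM in controls and 15.2, 6.86 and 49.8 CPM in treated libraries, without overlap. Both marker sums differ between the groups, so most genes are shifted on these scales. Per jugular CPM, 7 of the 9 channel genes, those other than Trpm8 and Trpv4, were lower without overlap and 0 were higher, beside 64.1% of all genes tested without overlap (63.9% lower, 0.237% higher). Per nodose CPM, 7 were higher without overlap and 0 lower, beside 68.2% of all genes (68.0% higher, 0.268% lower), and Trpa1 and Piezo1 overlapped. In such bulk RNA, fewer cells of a type and less RNA per cell cannot be told apart.

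**Figure D3:**
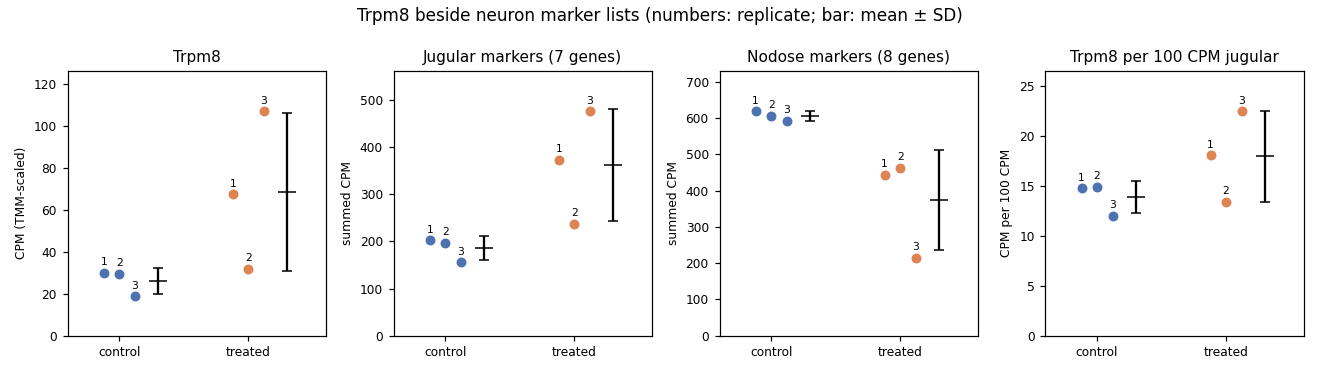
Trpm8 in CPM, the summed CPM of 7 jugular and 8 nodose neuron markers, and Trpm8 per 100 CPM of the jugular sum, by library (points, with replicate numbers) and as group mean with SD (bars). Trpm8 and the jugular sum are highest in treated replicate 3 and next in treated replicate 1, and the last panel shows groups that overlap.

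Trpv1 (ENSMUSG00000005952, chromosome 11, 73234292 to 73261242), the heat and capsaicin receptor of pain neurons, had 148, 163 and 134 CPM in controls and 185, 166 and 146 CPM in treated libraries. The groups overlapped, and the log2 fold change was 0.16 ± 0.12 (SE, edgeR adjusted p = 0.774). It was 0.06 without treated replicate 1, 0.09 without control replicate 3 and 0.25 without treated replicate 3. Trpa1 (ENSMUSG00000032769, chromosome 1, 14872648 to 14918862), which responds to mustard oil and many airway irritants, had 140, 155 and 122 CPM in controls and 140, 110 and 92.1 CPM in treated libraries. Treated replicate 1 lay among the controls and the other two below them. The log2 fold change was -0.28 ± 0.16 (edgeR adjusted p = 0.742), and leaving out treated replicate 3 gave -0.15, leaving out treated replicate 1 -0.47.

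Trpv1 and Trpa1 are often found in the same pain neurons, and their ratio does not depend on how a library is scaled. CPM of Trpv1 over Trpa1 was 1.06, 1.05 and 1.10 in controls and 1.33, 1.51 and 1.58 in treated libraries, with means of 1.07 ± 0.0249 and 1.47 ± 0.133 (SD, n = 3). The treated ratios all lay above the controls (two-sided exact permutation p = 0.1). This pair was singled out after its values were seen, among 36 pairs of the 9 genes. Of these pairs, 17 (47.2%) had ratios that did not overlap between the groups, against 14.4% of all pairs of genes tested, and the smallest adjusted p over the 36 pairs was 0.212. Pairs share genes and so are not independent: Piezo1 stood in 6 of the 17, and Trpa1 and Trpm2 in 5 each. The ratio of Trpa1 to Piezo2 was 0.335, 0.346 and 0.339 in controls and 0.235, 0.240 and 0.161 in treated libraries, also without overlap.

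Trpm3 (chromosome 19), a channel of noxious heat and steroids, had 77.6, 86.5 and 79.7 CPM in controls and 100, 84.6 and 105 CPM in treated libraries. Treated replicate 2 lay within the control range. Its log2 fold change of 0.25 ± 0.10 (SE) did not pass (edgeR adjusted p = 0.737). Trpm2 (chromosome 10), a channel opened by oxidative stress and warmth, had 29.5, 27.9 and 25.7 CPM in controls and 27.3, 24.5 and 18.9 CPM in treated libraries. Its groups overlapped at -0.23 ± 0.15 (edgeR adjusted p = 0.754), a value that became -0.10 with treated replicate 3 left out, or -0.36 with treated replicate 1 left out. Trpm2 is also known from macrophages and neutrophils, whose marker sums were highest in treated replicate 3, the library with the lowest Trpm2 in CPM. The part of these cells in the Trpm2 values was not tested.

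Trpv2 (chromosome 11), a relative of Trpv1 in large sensory neurons and macrophages, differed least between the groups. It had 48.3, 48.2 and 42.0 CPM in controls and 50.5, 51.8 and 47.2 CPM in treated libraries, at 0.11 ± 0.09 (SE, edgeR adjusted p = 0.789). Without control replicate 3 this was 0.04, and without treated replicate 2 it was 0.07. In treated replicate 3, whose macrophage sum of 261 CPM was the highest, Trpv2 was the lowest of the treated values. The part of macrophages in the Trpv2 values was not tested. Trpv4 (chromosome 5), which responds to cell swelling and is known from epithelium, endothelium and glia, was the scarcest of the 9, with 40, 83 and 47 counts in controls and 81, 121 and 73 in treated libraries. In CPM these were 2.29, 3.19 and 3.18 against 2.41, 4.21 and 5.81, with treated replicate 1 among the controls. The log2 fold change of 0.51 ± 0.38 (edgeR adjusted p = 0.774) became 0.19 with treated replicate 3 left out, or 0.77 with treated replicate 1 left out. Treated replicate 3 also had the highest endothelial, Schwann cell, satellite glia, fat cell and fibroblast sums, whose part in the Trpv4 value was not tested.

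The mechanically gated pair lay on opposite sides of 0. Piezo2 (ENSMUSG00000041482, chromosome 18, 63010213 to 63387183, minus strand), the channel of touch, airway stretch and, with Piezo1, of the baroreflex, had 416, 448 and 359 CPM in controls. It had 595, 458 and 574 CPM in treated libraries, all above the controls, with treated replicate 2 close to the highest control. The log2 fold change was 0.41 ± 0.14 (SE, edgeR adjusted p = 0.685, exact permutation p = 0.1), and leaving out 1 library gave 0.32 to 0.51.

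Piezo1 (ENSMUSG00000014444, chromosome 8, 122481698 to 122551329, minus strand), a stretch channel also known from endothelium and red blood cells, had 57.1, 60.8 and 74.4 CPM in controls. It had 45.4, 51.9 and 49.0 CPM in treated libraries, all below the controls. The log2 fold change was -0.39 ± 0.12 (SE, edgeR adjusted p = 0.670, exact permutation p = 0.1), the smallest p of the 9 genes, at rank 269 of 16019. Without control replicate 3, the library with the highest Piezo1, the value was -0.28. That library also had the highest erythroid sum, 52.4 CPM, where the other controls had 17.1 and 23.4 CPM and the treated libraries 10.1, 7.87 and 23.3. Endothelial sums were 109 to 128 CPM in controls and 98.5 to 164 CPM in treated libraries, and the part of either list was not tested. Exons of Ctu2 on the opposite strand cover 24.6% of the Piezo1 exon length, and the strand setting of the counting is not given in the sources used here. Ctu2, an enzyme of transfer RNA modification, was higher in all treated libraries, at 11.4 ± 1.43 CPM in controls and 13.8 ± 0.708 CPM in treated libraries (SD, n = 3).

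The ratio of Piezo1 to Piezo2 was 0.137, 0.136 and 0.207 in controls and 0.0764, 0.113 and 0.0854 in treated libraries, without overlap. Scaling by the summed counts of the 11 pan-neuronal genes in place of TMM moved the median of all genes to 0.12. Piezo1 was then at -0.29 with overlapping groups, and Piezo2 at 0.53 without overlap. On that scale the groups did not overlap for 5 of the 9 genes: Trpv1, Trpv2, Trpm8 and Piezo2 (higher) and Trpm2 (lower). Of all genes tested, 11.6% did not overlap on that scale, 6.24% higher and 5.39% lower. The pan-neuronal sum was 12237 to 13417 CPM in controls and 9931 to 13909 CPM in treated libraries, and treated replicate 3 had the lowest.

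The share of each gene in the summed CPM per kb of the 9, like a ratio, does not depend on the scaling of the library. Trpv1 took 31.9%, 32.4% and 32.2% in controls and 32.5%, 35.4% and 28.3% in treated libraries. Trpa1 took 25.9%, 26.7% and 25.3% in controls and 21.2%, 20.2% and 15.4% in treated libraries, all lower. Piezo2 took 19.0% ± 0.354 in controls and 22.4% ± 1.48 in treated libraries, and Trpm8 4.35% ± 0.764 and 10.2% ± 5.51 (SD, n = 3). The groups did not overlap for Trpa1, Trpm2 and Piezo1, which had lower shares, nor for Trpm8 and Piezo2, which had higher ones (exact permutation p = 0.1 each). These 5 were separate with the longest transcript as the length too. The shares add up to a fixed total, so higher shares of some genes lower those of others. No share over all genes tested can be set beside this count. In CPM the groups overlapped for Trpa1 and Trpm2.

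**Figure D4:**
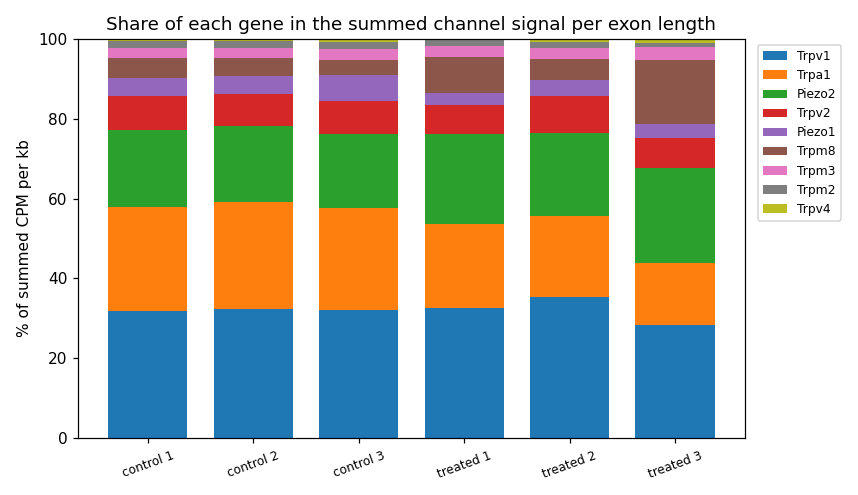
Share of each channel gene in the summed CPM per kb of merged exon length, 1 stacked bar for each library. The Trpa1 band is narrower in the treated bars (15.4% to 21.2%) than in the control bars (25.3% to 26.7%), and the Trpm8 band is widest in treated replicate 3.

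For each of the 9 genes, the gene with the most similar profile over the 6 libraries was found among the tested genes with a mean of at least 4 CPM, by the root mean square (RMS) distance of centred log2 levels. For Trpm8 it was Mrgprd, a receptor of skin pain neurons and 1 of the 7 jugular markers, at a distance of 0.154 where the median gene was at 0.859. Mrgprd had 49.2, 45.0 and 25.9 CPM in controls and 92.5, 46.0 and 124 CPM in treated libraries. For Piezo2 it was Tmtc1, an enzyme that adds mannose to cadherins, at 0.0305; it averaged 183 ± 19.2 CPM over the controls and 239 ± 28.1 CPM over the treated libraries. The closest to Trpm3 was Deptor, an inhibitor of mTOR (0.0158), to Trpv2 the translation factor subunit Eif3b (0.0168) and to Trpm2 Kctd10 (0.0289). The closest to Trpa1 was Ttc39a (0.0411), to Trpv1 Rab11fip4 (0.0416), to Trpv4 Cnksr3 (0.0557) and to Piezo1 Rbm12b2 (0.0563). Within the 9, the closest partners were Trpv1 and Trpv2 at 0.0881 and Trpa1 and Trpm2 at 0.0984, while Trpm8 was 0.609 from its closest member, Piezo2.

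Of 21 other TRP channel genes, 15 were tested and 0 passed by edgeR. At an unadjusted edgeR p under 0.05 there were 1 higher and 2 lower, beside 4.0% and 2.67% of all genes tested. The list's median log2 fold change was 0.05. Trpc4, a receptor-operated cation channel, averaged 27.0 ± 2.65 CPM over the controls and 16.0 ± 3.87 CPM over the treated libraries (SD, n = 3), which all lay lower, at -0.74 ± 0.19 (SE, edgeR adjusted p = 0.621). Trpc7, of the diacylglycerol-gated branch, had 6.42, 7.69 and 8.45 CPM in controls and 4.79, 4.6 and 5.01 CPM in treated libraries, also all lower, at -0.65 ± 0.20 (edgeR adjusted p = 0.670). Without treated replicate 3, Trpc4 was at -0.56. Pkd2l1, a channel of acid-sensing and fluid-contacting cells, had 3, 5 and 0 counts in controls and 37, 67 and 17 in treated libraries. Its log2 fold change of 3.56 ± 0.78 had an edgeR adjusted p of 0.568 and a DESeq2 adjusted p of 0.0134, and it was the 1 gene of this list that DESeq2 called. The ubiquitous channel kinase Trpm7 was at 0.01 ± 0.09, and between -0.04 and 0.08 when 1 library was left out.

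Of 20 partners and sensitisers of these channels, 16 were tested, and 0 passed by edgeR and 0 by DESeq2. With an unadjusted edgeR p under 0.05, 2 were higher and 2 lower, beside 4.0% and 2.67% of all genes tested. The median was -0.07. Tmem150c, proposed as a part of slowly adapting mechanical currents, was at -0.48 ± 0.17 (SE, edgeR adjusted p = 0.721) and lower in all treated libraries. The phospholipase Plcb3, which links receptors to TRP channels, was at -0.37 ± 0.16, and averaged 824 ± 34.7 CPM over the controls and 637 ± 135 CPM over the treated libraries (SD, n = 3), without overlap. Without treated replicate 3, Tmem150c was at -0.30 and Plcb3 at -0.24. Pacsin3, a TRPV4-binding protein, was at 0.59 ± 0.24 (edgeR adjusted p = 0.737) with overlapping groups, and at 0.43 without treated replicate 3.

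Of 13 other mechanically gated channel genes, 12 were tested, 0 passed by edgeR and 0 by DESeq2, and the median was 0.11. With an unadjusted edgeR p under 0.05, 1 was higher and 1 lower, beside 4.0% and 2.67% of all genes tested. Kcnk2, the stretch-activated potassium channel TREK-1, had 54.9, 65.9 and 62.7 CPM in controls and 48.6, 53.1 and 43.4 CPM in treated libraries, all lower, at -0.34 ± 0.11 (SE, edgeR adjusted p = 0.685). Tmem63a, a high-threshold stretch channel, had 13.0, 13.0 and 13.7 CPM in controls and 15.7, 17.3 and 24.7 CPM in treated libraries, all higher, at 0.54 ± 0.18. Without treated replicate 3 Tmem63a was at 0.32. The acid-sensing channels Asic3 and Asic1 were at 0.47 ± 0.22 and 0.28 ± 0.15, and both overlapped between the groups. Asic3 was at 0.22 without treated replicate 1, and Asic1 at 0.18 without control replicate 1 and 0.45 without control replicate 2.

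**Figure D5:**
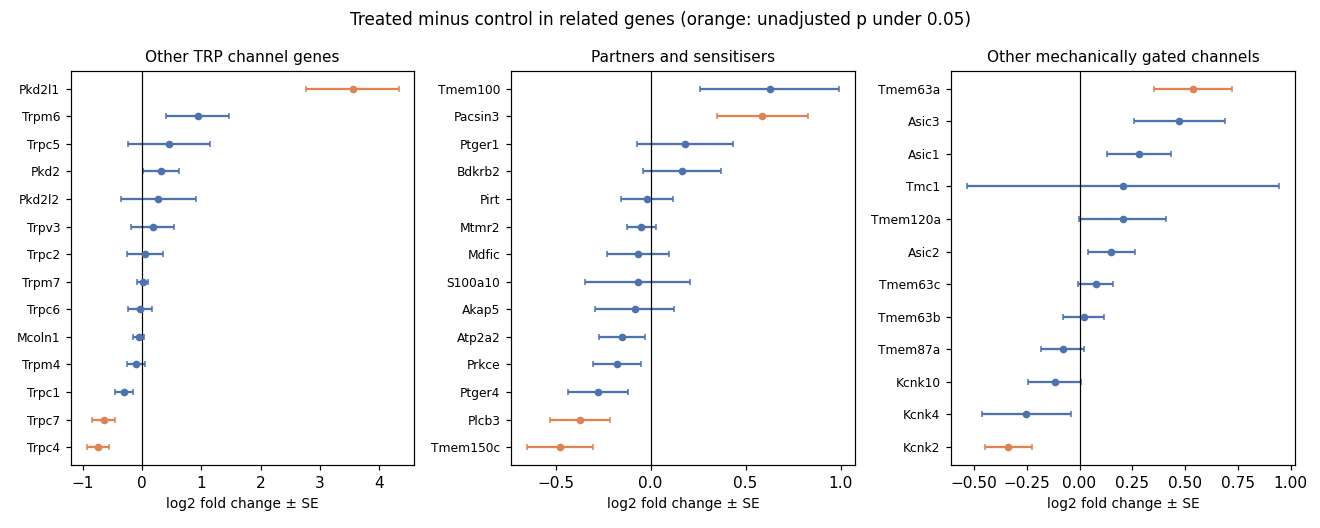
Log2 fold change with SE, treated minus control, for tested genes of 3 lists: 14 of the 15 other TRP channel genes, 14 of the 16 partners and sensitisers, and all 12 other mechanically gated channels; orange points have an unadjusted p under 0.05. Pkd2l1, which rests on few counts, lies farthest from 0, and points fall on both sides of 0 in each list.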

How the data were processed

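Per the labels, the 6 libraries were made from roughly 6 ng of RNA each with a strand-specific kit and read at 100 bp; integrity numbers over the whole study ran from 6.6 to 9.1. The deposited values are counts of exonic reads per gene, 1 file per library. The submitters' processing notes name build mm10, edgeR, DESeq2, STAR 2.7.7a and bcl2fastq 2.20. The counting program, its annotation and its strand setting: not given in the sources used here. Of 32719 genes, 32663 matched GENCODE M21, which gave coordinates and exon lengths (GRCm38, the same build as mm10).

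Genes were kept by filterByExpr (minimum count 10), scaled by TMM and tested with edgeR 4.0.16 (R 4.3.3) by a robust quasi-likelihood F test, with Benjamini-Hochberg adjustment over 16019 genes. SE is the log2 fold change divided by the square root of F. Alternatives used DESeq2 1.42.0, limma 3.58.1, other scalings and filters, a block for the replicate number, and leaving out each library in turn. The procedure was tested on simulated data. It called 39 of 97 genes changed 2-fold, 73 of 97 changed 4-fold and 12 of 15518 unchanged genes. A gene that was not called may therefore still differ. Named genes outside the 9 are the 4 with the smallest p in each of 3 lists and the nearest profile of each of the 9; Mcoln2, Mcoln3, Trpm7 and Ctu2, and single markers, were picked with their values in view. Some list genes that this rule took are not reported here. The 9 genes, the lists and the tests were chosen with earlier results of these data known.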

Additional observations from a re-analysis of the deposited data

How the results depend on the processing

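Of 152 log2 fold changes of the 9 channel genes under 17 alternatives, 152 kept their sign and 1 was called, Trpm8 under DESeq2. The other 21 named genes gave 356 values, of which 0 reversed and 1 was called, Pkd2l1 under DESeq2. Against 0 genes called by edgeR, 26 were called without the filter, 89 by DESeq2 and 8 by limma-voom with sample weights, and leaving out 1 library gave 0 to 9 (7 without treated replicate 1, 9 without treated replicate 3). Of the 9 genes, 1 was called by DESeq2 and 0 under every other setting, an adjusted p under 0.1 included. Their median log2 fold change of 0.16 was 0.26 with pan-neuronal scaling and 0.0895 to 0.228 when 1 library was left out (0.0903 without treated replicate 1). The number of the 9 whose groups did not overlap was 3, beside 14.7% of all genes tested. It was 5 with pan-neuronal scaling, beside 11.6%. Leaving out 1 library gave 3 to 6. Fewer libraries favour such separation, and no share over all genes was computed for those counts, so nothing is read from them. With the replicate number as a block edgeR called 1 gene, 0 of them among the 9. Deviations from the group means correlated at 0.0142, 0.564 and 0.488 for replicates 1, 2 and 3. Of 6 libraries, 4 correlated best with their own number in the other group. These values do not settle whether the numbers pair the samples, and the main fit used no pairing. With the longest transcript in place of merged exons, the control share of Trpm3 was 4.34% in place of 2.67%. The lowest counts were those of Trpv4, 40 to 121 per library, and with 3 against 3 no exact permutation p can fall below 0.1.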

Other observations

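Mcoln2 and Mcoln3, which encode TRP channels of endosomes and lysosomes, had too few counts for the filter used here, and they were singled out after their values were seen. Mcoln2, known from immune cells, was at 1, 7 and 4 counts in controls, against 10, 38 and 27 in treated libraries. Under the 5 alternatives that kept it, its log2 fold change ran from 2.16 to 3.04 and its edgeR adjusted p from 0.424 to 0.995. Mcoln3 was at 1, 5 and 0 counts in controls, against 7, 9 and 9 in treated libraries. With no filter its log2 fold change was 2.04 (edgeR adjusted p = 0.836). The macrophage marker sum was 43.9, 32 and 73.0 CPM in controls, against 39.8, 72.6 and 261 CPM in treated libraries, and its part in these counts was not tested. Trpm1, Trpm5, Trpv5 and Trpv6 had at most 14 counts in any library. Bdkrb1, the inducible bradykinin receptor, had 0 counts in all 6 libraries. Per 100 CPM of the pan-neuronal sum, Trpv1 was at 1.11, 1.22 and 1.09 CPM in the controls and 1.33, 1.28 and 1.47 CPM in the treated libraries, higher without overlap. Per 100 CPM of the jugular sum it was at 73.2, 82.8 and 85.7 CPM in the controls and 49.7, 70.2 and 30.7 CPM in the treated libraries, lower without overlap. Per 100 CPM of the nodose sum it was at 24.0, 26.9 and 22.6 CPM in the controls and 41.8, 36.0 and 67.9 CPM in the treated libraries, higher without overlap. Of all genes tested, 6.24% were higher without overlap on the pan-neuronal scale. On the jugular scale 63.9% were lower without overlap, and on the nodose scale 68.0% were higher. The direction for Trpv1 thus changes with the marker list, and on the jugular and nodose scales it is that of most genes. On the pan-neuronal scale Trpm2 was at 0.213 ± 0.00639 CPM in the controls and 0.192 ± 0.00437 CPM in the treated libraries (SD, n = 3).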
